A study of Mus musculus with 12 samples.

Results

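Insulin signalling in the liver was described through 10 genes chosen by name: Insr, Irs1, Irs2, Pik3r1, Akt1, Akt2, Foxo1, Foxo3, Grb14 and Igfbp1. All 10 were found among the 22171 gene names of the deposited liver RNA-seq table, as 99 transcripts whose values were added up for each gene, and all 10 passed the filter on low values that left 11567 genes for testing. The livers came from male C57BL/6J mice that were 21 weeks old and had been on their diets for 16 weeks. ND mice received a normal diet, HFD mice a high-fat diet, CLE mice the same high-fat diet with 1.5% (w/w) of an ethanol extract of chrysanthemum leaf, and LU mice the high-fat diet with 0.003% (w/w) luteolin, a plant flavone. Each group held 3 livers, which the study's methods call representative of larger groups, and all mice were fasted before the livers were taken. CLE and LU mice therefore carried the high-fat diet as well, and HFD was their control. Livers are named below by group and mouse number.

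Insulin binds its receptor, encoded by Insr, which phosphorylates the adaptors IRS1 and IRS2. These recruit PI3-kinase, whose p85α regulatory subunit is the product of Pik3r1, and the lipid it makes activates the kinases AKT1 and AKT2, AKT2 being the main form in hepatocytes. AKT phosphorylates the transcription factors FOXO1 and FOXO3 and keeps them out of the nucleus, and GRB14 is an adaptor that binds the active receptor and inhibits it. Irs2 and Igfbp1, which encodes a secreted binding protein for insulin-like growth factors, are transcribed more in the fasted liver and are known FOXO1 target genes, so their mRNA is commonly read as a measure of insulin action on liver transcription.

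The promoters of 3 of the 10 genes are printed because they hold a short element, CAAAACA on either strand, of the kind known as the insulin response sequence and bound by FOXO factors. The sequences are the 250 bases before the RefSeq transcription start on GRCm38.p6, read 5′ to 3′ on the strand of the gene, with the element in capitals. They lie at chr11:7197537-7197786 on the plus strand for Igfbp1, at chr8:11008930-11009179 on the minus strand for Irs2 and at chr1:82291440-82291689 on the minus strand for Irs1.
Igfbp1: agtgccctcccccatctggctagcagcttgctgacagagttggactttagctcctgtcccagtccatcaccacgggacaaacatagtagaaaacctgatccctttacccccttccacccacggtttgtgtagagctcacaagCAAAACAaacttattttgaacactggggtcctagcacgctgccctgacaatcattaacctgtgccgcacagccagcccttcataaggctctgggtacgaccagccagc
Irs2: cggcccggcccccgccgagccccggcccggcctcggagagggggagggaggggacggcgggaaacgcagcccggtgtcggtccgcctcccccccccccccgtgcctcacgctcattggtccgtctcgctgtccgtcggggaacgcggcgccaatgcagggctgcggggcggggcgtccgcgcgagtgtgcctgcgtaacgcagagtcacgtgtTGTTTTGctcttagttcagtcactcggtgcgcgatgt
Irs1: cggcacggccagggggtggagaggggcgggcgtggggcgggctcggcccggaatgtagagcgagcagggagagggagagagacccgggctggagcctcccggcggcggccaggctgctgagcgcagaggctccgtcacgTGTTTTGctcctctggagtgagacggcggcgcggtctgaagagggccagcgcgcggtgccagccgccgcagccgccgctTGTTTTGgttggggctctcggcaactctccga
In Igfbp1 the element was read on the gene's own strand, from -108 to -102 counted from the start. In Irs2 it lay on the opposite strand from -37 to -31, and Irs1 held 2 copies on the opposite strand, from -111 to -105 and from -32 to -26. The RefSeq promoter table held entries for 9 of the 10 genes, Insr being the missing entry, and no other entry of these genes held CAAAACA in this window. The FOXO core GTAAACA was found once among them, on the opposite strand of an Akt1 promoter, from -161 to -155. Across all 32851 promoters in the table, 5.6% held CAAAACA and 3.2% held GTAAACA on either strand. No printed sequence holds both elements. These matches describe letters in a window and are not evidence of binding.

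Before the results, the libraries were compared. The values are FPKM, fragment numbers divided by transcript length and by the mapped fragments of the library, with no read counts given, so sequencing depth is not known. Levels are thus per length. The value of a gene is a sum over its short and long transcripts, so an order of genes is an order of these sums. It need not be the order of the full-length mRNAs. The largest value of a single transcript in a library ran from 817802 FPKM in ND 4 to 3500000 FPKM in CLE 4. A listed 0 need not mean absence: 11 of the 12 livers have albumin at 0. Hepatocyte markers summed to 15775 to 18345 FPKM in ND and 17222 to 19827 FPKM in HFD, and none of the 8 was called between these groups. Macrophage and Kupffer cell markers summed to 103 to 114 FPKM in ND and 150 to 225 FPKM in HFD, with 4 of 7 called higher in HFD, and stellate cell and fibroblast markers to 73.4 to 104 FPKM and 130 to 163 FPKM, with 5 of 7 called higher, and the part of these cells in the results was not tested. In these bulk samples fewer cells of a type and less RNA per cell cannot be told apart. The 4 adipocyte markers summed to at most 0.107 FPKM in ND, 0.156 in HFD and 0.384 in CLE, and to 1.02 to 1.35 FPKM in LU. Of 5 exocrine pancreas markers, Cpa1, Pnlip and Ctrb1 were at 0 in every liver, Prss2 was at 0 except in CLE 4 at 0.076 FPKM, and Cela1 was at 6.96 to 16.3 FPKM. A score of 14 clock and clock-output genes was the mean of their standardized values, in SD units, each given a sign. The sign was that of the gene's loading on the first principal component of these genes over the same 12 livers, with Dbp positive. The directions thus come from these data. The score ran from -1.443 to -0.222 in ND, from -0.725 to 0.126 in HFD, from 0.306 to 1.017 in CLE and from 0.165 to 0.887 in LU. Gene deviations also followed GC content, with a Spearman correlation across genes of -0.373 to -0.141 in the ND and HFD livers and of 0.160 to 0.479 in the CLE and LU livers; treatment with CLE or LU and this property of the libraries cannot be told apart.

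In order of the mean sum over the 12 livers, Igfbp1 had the highest value of the 10 genes, at 79.2 FPKM. It was followed by Grb14 at 39.3, Akt2 at 35.9, Insr at 28.6, Akt1 at 22.9 and Pik3r1 at 16.8 FPKM. Foxo3 at 9.91, Foxo1 at 8.42, Irs2 at 6.33 and Irs1 at 1.98 FPKM came last. Of the mean of Insr, 19.6 FPKM lay in a single transcript over the 3′ portion of the gene. Among the 11567 genes tested the mean of Igfbp1 stood at percentile 91.1 and that of Irs1 at percentile 18.2. Neighbours in this order were often not separated: Grb14 ran from 34.0 to 45.6 FPKM and Akt2 from 29.0 to 38.9 FPKM, and Foxo3 ran from 6.88 to 15.8 FPKM and Foxo1 from 5.96 to 11 FPKM. The place of Igfbp1 rested on ND, where its mean was 191 FPKM, and in HFD its mean of 35.2 FPKM lay beside those of Akt2 at 36.5 and Grb14 at 35.1 FPKM. The coefficient of variation over the 12 livers was 104% for Igfbp1 and 52.0% for Irs2, and between 7.65% (Akt2) and 29.0% (Pik3r1) for the other genes.

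**Figure D1:**
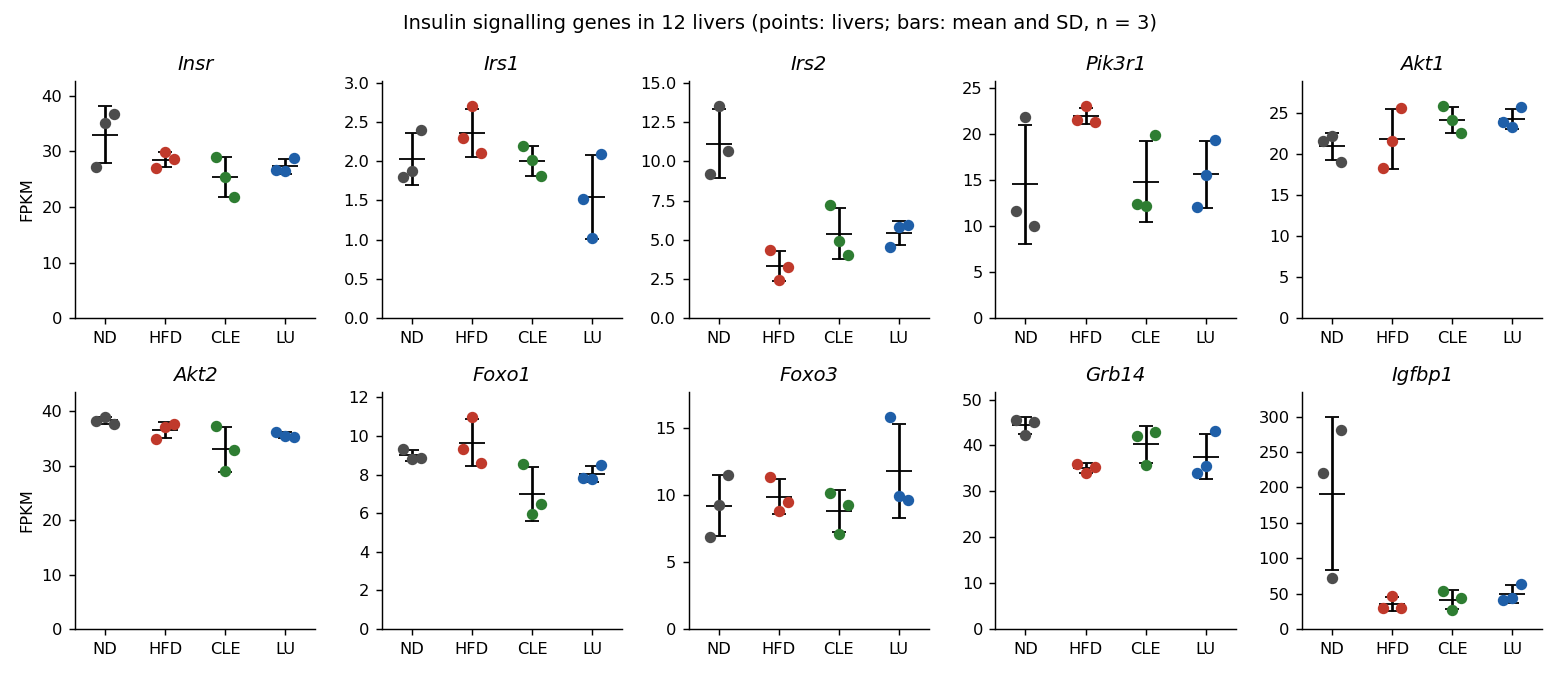
FPKM of the 10 genes (vertical axes, each from 0) in the 12 livers by diet group (horizontal axes), with each point 1 liver and bars giving the mean and SD of 3 livers. In the Irs2 panel every ND liver lies above every other liver by a clear gap, and in the Igfbp1 and Akt2 panels by a narrow one.

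The high-fat diet went with lower Irs2 and Igfbp1 mRNA, and both were also lower than in ND in the CLE and LU livers. Between HFD and ND, 2 of the 10 genes passed the test (limma on log2(FPKM + 1), Benjamini-Hochberg adjusted p under 0.05 over all 11567 genes), both lower in HFD. Of all genes tested 12.1% were called in this comparison and 2.11% were called lower. The exact permutation test of a single gene among the 4 groups, over all 15400 divisions of the 12 livers, gave p = 0.0019 for Irs2 and 0.0089 for Igfbp1, unadjusted for the 10 genes and 3 within-liver ratios to which this test was applied.

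Irs2, the adaptor whose liver mRNA is known to rise with fasting, was at 9.21, 13.5 and 10.7 FPKM in ND 2, ND 3 and ND 4. In HFD 12, HFD 15 and HFD 18 it was at 4.34, 2.45 and 3.25 FPKM. The HFD mean of 3.35 ± 0.947 FPKM (SD, n = 3) was 0.30 of the ND mean of 11.1 ± 2.18 FPKM, and no HFD liver reached any ND liver. The log2 fold change was -1.49 (SE 0.204, limma adjusted p = 0.00064). Across every alternative tried it lay between -1.72 and -1.34 and remained called.

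In CLE 2, CLE 4 and CLE 11 Irs2 was at 7.22, 4.96 and 4.02 FPKM, and in LU 2, LU 3 and LU 8 at 4.55, 5.84 and 5.93 FPKM. Every CLE and LU liver lay below every ND liver, while CLE 11 lay inside the HFD range and all 3 LU livers lay above it. Against ND, Irs2 was lower in CLE, at a log2 fold change of -0.94 (limma adjusted p = 0.0085) and in LU, at -0.91 (limma adjusted p = 0.016). Against HFD the differences were 0.55 for CLE (95% interval 0.108 to 0.992, limma adjusted p = 0.10) and 0.58 for LU (0.140 to 1.024, limma adjusted p = 0.15), and neither passed the threshold. The comparisons against HFD use the same 3 HFD livers, so they are not independent of the comparison of HFD with ND.

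Igfbp1, the most variable of the genes, was at 221, 71.5 and 281 FPKM in ND 2, ND 3 and ND 4. It was at 29.1, 46.9 and 29.5 FPKM in the HFD livers, at 53.4, 27.2 and 43.9 FPKM in the CLE livers and at 40.9, 43.4 and 63.2 FPKM in the LU livers. The lowest ND liver, ND 3, still lay above the highest liver of the other groups, LU 8. Against ND, the log2 fold change was -2.23 in HFD (SE 0.415, limma adjusted p = 0.0049), -2.01 in CLE (adjusted p = 0.0068) and -1.75 in LU (adjusted p = 0.019). The intervals against HFD were wide, from -0.681 to 1.113 around 0.22 for CLE and from -0.417 to 1.377 around 0.48 for LU, and neither was called (limma adjusted p = 0.75 and adjusted p = 0.52).

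The difference of Igfbp1 between HFD and ND stayed called under every alternative, with log2 fold changes from -2.83 to -1.34, while the comparison of LU with ND lost its call without ND 2, ND 4, LU 2 or LU 3, at adjusted p of up to 0.0721. Within ND, Igfbp1 was lowest where the clock score was highest: ND 3 had a score of -0.222, against -1.218 and -1.443 in ND 2 and ND 4. Within HFD, HFD 15 had the lowest score, at -0.725, and the highest Igfbp1, at 46.9 FPKM. Within CLE, CLE 4 had the highest score, at 1.017, and the lowest Igfbp1, at 27.2 FPKM. Within LU, LU 8 had the lowest score, at 0.165, and the highest Igfbp1, at 63.2 FPKM. Between the other livers of each of these groups Igfbp1 rose with the score. By group mean, CLE and LU had higher scores than HFD, and Igfbp1 means of 41.5 and 49.1 FPKM against 35.2 FPKM in HFD. With that score as a covariate the difference of Igfbp1 between HFD and ND was -1.34 (limma adjusted p = 0.00186). The same fit gave -0.15 for CLE against ND and 0.22 for LU against ND (adjusted p = 0.864 and adjusted p = 0.904), so that both calls were lost, and gave 1.20 and 1.56 for CLE and LU against HFD (adjusted p = 0.0401 and adjusted p = 0.0159), so that both were called. For Irs2 it gave -1.63 for HFD against ND (adjusted p = 0.00223), -1.23 for CLE against ND and -1.21 for LU against ND, the last pair no longer called (adjusted p = 0.175 and adjusted p = 0.314). The score separates both ND and HFD from CLE and LU without overlap, so the clock genes and the addition of CLE or LU cannot be told apart in these samples. This limit holds for the calls lost against ND and for those gained against HFD.

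**Figure D2:**
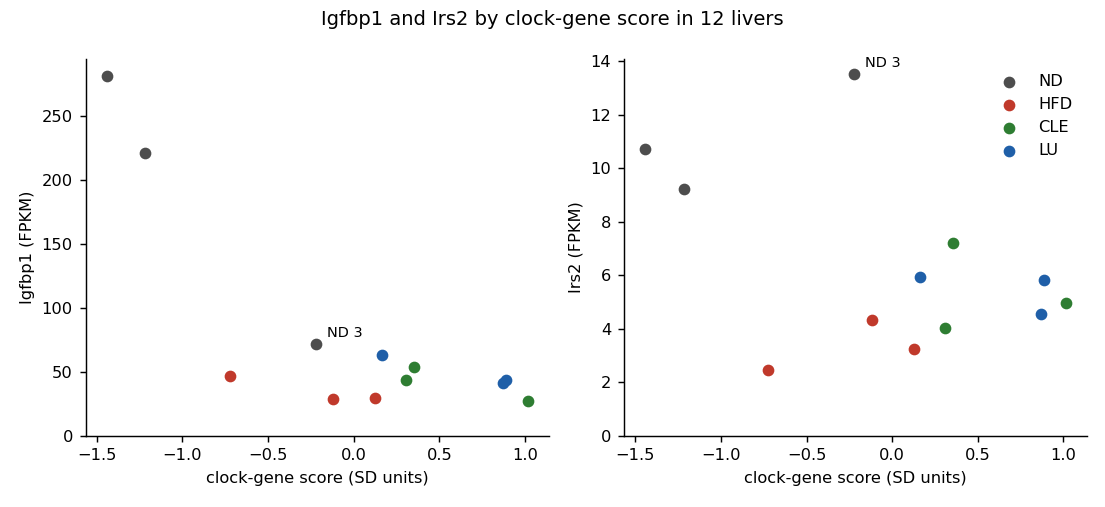
FPKM of Igfbp1 (left) and Irs2 (right), each axis from 0, against the clock-gene score in SD units, with each point 1 of the 12 livers coloured by diet group. ND 2 and ND 4 have the lowest scores with the highest Igfbp1, and ND 3 at -0.222 has 71.5 FPKM of Igfbp1 but 13.5 FPKM of Irs2, the highest Irs2 of all livers.

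The insulin receptor and the other adaptor were called in no comparison. Insr was at 27.2, 35.1 and 36.7 FPKM in the ND livers and at 27.1, 29.8 and 28.7 FPKM in the HFD livers. In CLE it was at 29.1, 25.4 and 21.7 FPKM and in LU at 26.7, 26.5 and 28.8 FPKM. ND 3 and ND 4 were the highest of the 12 livers and ND 2 lay among the other groups. Its log2 fold change from ND was -0.19 in HFD (limma adjusted p = 0.37) and -0.36 in CLE (adjusted p = 0.055). The latter was called with median-of-ratios scaling of the libraries, at -0.53 (adjusted p = 0.0101), and without ND 2 (-0.49, adjusted p = 0.0279) or CLE 2 (-0.46, adjusted p = 0.0233). Over all alternatives the difference between CLE and ND lay between -0.53 and 0.051, with limma adjusted p from 0.0101 to 0.784, and changed sign in 1.

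Irs1 was the least abundant member and was at 1.8, 1.88 and 2.40 FPKM in ND, at 2.30, 2.70 and 2.10 FPKM in HFD, at 2.19, 2.01 and 1.81 FPKM in CLE and at 1.52, 1.02 and 2.09 FPKM in LU. All groups overlapped except LU and HFD, in which the highest LU liver was just below the lowest HFD liver. The log2 fold change of LU against HFD was -0.42 (95% interval -0.749 to -0.094, limma adjusted p = 0.16), which did not pass the threshold. Because values near 1 FPKM are compressed by the pseudocount of 1 FPKM, this scale understates the ratio of the means, which was 0.653.

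The balance of the adaptors was given as the ratio of Irs2 to Irs1 within each liver. It was 5.12, 7.19 and 4.45 in ND and 1.89, 0.910 and 1.55 in HFD, so that HFD 15 held slightly less Irs2 than Irs1 while every ND liver held several times more. The ratio was 3.30, 2.46 and 2.22 in CLE and 2.99, 5.74 and 2.84 in LU. All CLE and LU ratios lay above all HFD ratios, and LU 3, which had the lowest Irs1, lay within the ND range. The ratios are given as a description, with no p-value.

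Pik3r1 was at 11.7, 21.9 and 10.1 FPKM in the ND livers and at 21.6, 23.0 and 21.4 FPKM in the HFD livers. It was at 12.4, 12.2 and 19.9 FPKM in CLE and at 12.1, 15.5 and 19.4 FPKM in LU. HFD was tight and high, and ND 3 alone of the ND livers lay in the HFD range. From ND to HFD the log2 fold change was 0.64 (SE 0.254, limma adjusted p = 0.12) and was 0.96 with a call (adjusted p = 0.0166) without ND 3. Every CLE and LU liver lay below every HFD liver, with log2 fold changes of -0.57 and -0.49 that were not called (limma adjusted p = 0.16 and adjusted p = 0.29).

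The AKT kinases varied least. Akt2 was at 38.3, 38.9 and 37.7 FPKM in ND, at 34.8, 37.1 and 37.6 FPKM in HFD, at 37.2, 29.0 and 32.9 FPKM in CLE and at 36.3, 35.4 and 35.3 FPKM in LU. Akt1 was at 21.7, 22.2 and 19.0 FPKM in ND, at 18.4, 21.6 and 25.7 FPKM in HFD, at 25.8, 24.2 and 22.6 FPKM in CLE and at 24.0, 23.3 and 25.7 FPKM in LU. For Akt2 every ND liver was above all others, and for Akt1 every ND liver was below every CLE and LU liver, but no comparison of either gene was called, the largest being -0.21 for Akt2 in CLE against ND (95% interval -0.431 to 0.002, limma adjusted p = 0.12). That comparison was called with median-of-ratios scaling, at -0.38 (adjusted p = 0.0202), and without CLE 2, at -0.30 (adjusted p = 0.0333). The difference of Akt1 from ND shrank with the same scaling, from 0.200 to 0.034 in CLE and from 0.207 to 0.082 in LU. Over all 25 alternatives it lay between -0.31 and 0.27 in CLE and between -0.05 and 0.25 in LU. Its sign changed in 3 of them for CLE and in 2 for LU.

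Within each liver the ratio of Akt2 to Akt1 was 1.77, 1.75 and 1.98 in ND and 1.89, 1.72 and 1.46 in HFD. It was 1.44, 1.20 and 1.46 in CLE and 1.51, 1.52 and 1.37 in LU, so that all CLE and LU ratios lay below all ND ratios and HFD 18 lay among them. These ratios do not depend on a scale factor of the library and are given as a description. The GC dependence of the libraries and the make-up of the transcripts can still enter them, and their part was not tested. The ratio of Foxo1 to Foxo3 ran from 0.769 to 1.36 in ND, 0.825 to 1.25 in HFD, 0.700 to 0.847 in CLE and 0.495 to 0.887 in LU.

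Foxo1, the main FOXO factor of insulin action in liver, was at 9.34, 8.81 and 8.84 FPKM in ND and at 9.35, 11 and 8.60 FPKM in HFD. It was at 8.56, 5.96 and 6.47 FPKM in CLE and at 7.82, 7.79 and 8.52 FPKM in LU, and all 6 of these livers lay below all ND and HFD livers. The log2 fold change of CLE against HFD was -0.42 (SE 0.130, limma adjusted p = 0.064) and reached a call without CLE 2, the highest CLE liver, at -0.56 (adjusted p = 0.0133). Against ND the value for CLE was -0.34 (adjusted p = 0.068) as deposited and -0.49 with a call (adjusted p = 0.0168) with median-of-ratios scaling, and -0.63 (adjusted p = 0.022) when read from its most abundant transcript. Other alternatives weakened it: over all of them it lay between -0.63 and -0.06, with limma adjusted p from 0.0132 to 0.926. LU against HFD was -0.23 (95% interval -0.510 to 0.051, limma adjusted p = 0.33). Foxo3 was at 6.88, 9.23 and 11.5 FPKM in ND, 11.3, 8.77 and 9.49 FPKM in HFD, 10.1, 7.09 and 9.25 FPKM in CLE and 15.8, 9.90 and 9.61 FPKM in LU, with every pair of groups overlapping, LU 2 the highest liver and no call in any comparison.

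Grb14, the receptor inhibitor, was at 45.6, 42.3 and 45.2 FPKM in ND and at 36.0, 34.0 and 35.2 FPKM in HFD, which did not overlap. It was at 42.2, 35.6 and 43.0 FPKM in CLE and at 34.0, 35.5 and 43.1 FPKM in LU, where the values were spread between the HFD and ND ranges. From ND to HFD the log2 fold change was -0.33 (SE 0.111, limma adjusted p = 0.073) and did not pass the threshold as deposited. With median-of-ratios scaling it was -0.49 and passed (adjusted p = 0.0173), and it also passed without CLE 4 (adjusted p = 0.0435), whose removal left the fold change at -0.33. Over all alternatives that fold change lay between -0.49 and -0.19, with limma adjusted p from 0.0106 to 0.575. Grb14 and Foxo1 had exact permutation p-values among the 4 groups of 0.045 and 0.039, unadjusted, and neither was called by limma over all genes (adjusted p = 0.13 and adjusted p = 0.089).

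Against HFD, then, none of the 10 genes was called in CLE and none in LU. By limma, 6.03% of all genes were called in CLE and 1.03% in LU, while an unadjusted p under 0.05 was found for 3 of the 10 genes in CLE and 2 in LU, against 3408 and 2346 of all 11567 genes, so that these counts lay near the background. Against ND, Irs2 and Igfbp1 were called lower in both, where 27% of all genes were called in CLE and 14.9% in LU, and 6.09% and 3.77% were called lower. CLE against LU had no call and no unadjusted p under 0.05 among the 10, with 0.00865% of all genes called, and its intervals for Irs2 and Igfbp1 were -0.475 to 0.409 and -1.161 to 0.632 on the log2 scale. Among the 4 groups together the same 2 genes were called, against 24.4% of all genes. The groups did not overlap for 4 of the 10 genes in HFD against ND (36.5% of all genes), for 2 in CLE against HFD (31.3%), for 4 in LU against HFD (30%), for 5 in CLE against ND (42.4%), for 5 in LU against ND (40.9%) and for 0 in CLE against LU (7.08%), counts that lay near the background.

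**Figure D3:**
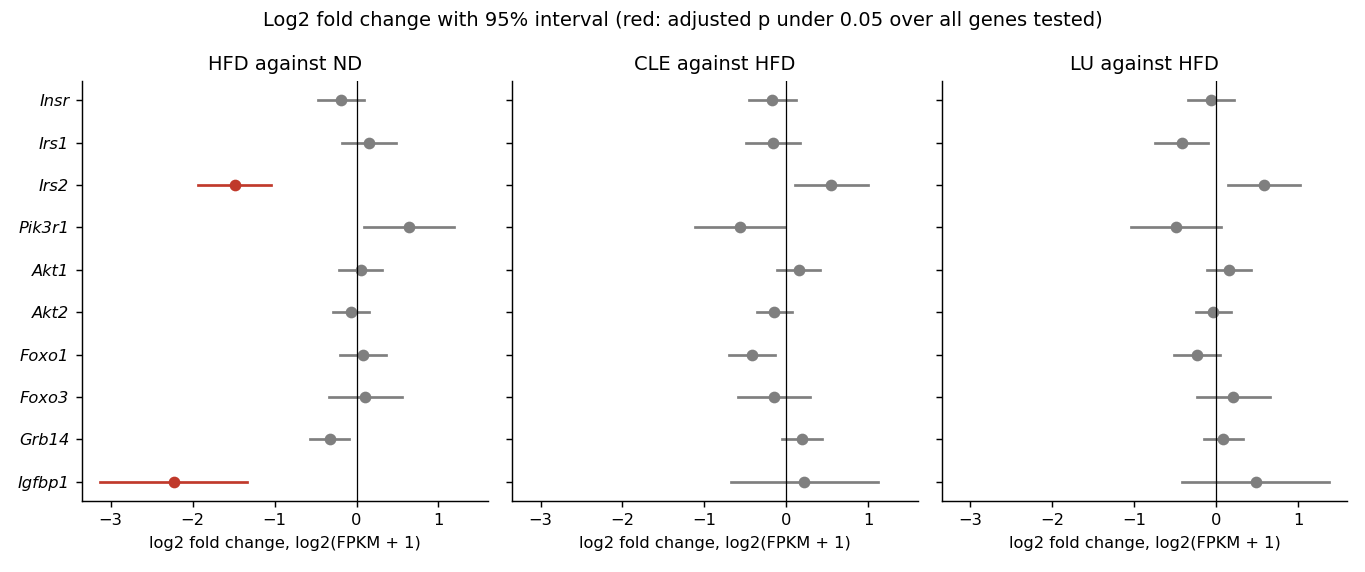
Log2 fold change on the log2(FPKM + 1) scale (horizontal axes) of the 10 genes (rows) in 3 comparisons (HFD against ND, then CLE and LU against HFD), with points for the estimate and lines for the 95% interval of the limma fit over 12 livers. Irs2 at -1.49 and Igfbp1 at -2.23 in HFD against ND are the called values, drawn in red.

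The scale of the libraries moved with the diets. The median log2 fold change over all genes tested was 0.115 for HFD against ND as deposited and -0.013 with median-of-ratios scaling. Relative to the median as deposited, the log2 fold change in HFD was -1.60 for Irs2 and -2.34 for Igfbp1, and the median over the 10 genes was -0.009 before the median of all genes was taken off. Of all genes called in HFD against ND 82.6% were higher as deposited and 55.2% with median-of-ratios scaling, and of those called in CLE against ND 77.4% and 42.9%, and in LU against ND 74.7% and 40.7%. Irs2 and Igfbp1 were lower in HFD under every scaling tried.

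The transcripts behind the sums also differed between the groups. Cufflinks shares fragments among overlapping transcripts, and these shares are given without a test. For Insr, a single assembled transcript at chr8:3150755-3167723 on the minus strand of GRCm38, spanning the 3′ portion of the gene, held 46.8% to 65.9% of the gene's FPKM in ND, 54.8% to 73.9% in HFD, 74.3% to 80.5% in CLE and 78.1% to 79.6% in LU. That short transcript was at means of 18.7, 18.6, 19.4 and 21.5 FPKM in ND, HFD, CLE and LU. The transcripts spanning at least 75% of the gene were at means of 14.2, 9.82, 5.78 and 5.61 FPKM, with 9.27, 13.9 and 19.4 FPKM in the ND livers and no CLE or LU liver above 7.37 FPKM.

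Long transcripts of Pik3r1 and Akt2 also held smaller shares in CLE and LU than in ND. The transcripts spanning under 25% of Pik3r1 held 39.0% to 52.5% of its FPKM in ND, 57.6% to 72.2% in HFD, 65.3% to 77.9% in CLE and 69.3% to 80.6% in LU, and the single transcript that spans the gene was at means of 8.29, 7.77, 4.07 and 3.95 FPKM. The higher sum of Pik3r1 in HFD therefore lay in short transcripts, at 14.2 FPKM against 6.25 FPKM in ND. For Akt2 the transcripts spanning at least 75% of the gene held 69.4% to 74.2% in ND, 66.4% to 78.8% in HFD, 33.4% to 59.2% in CLE and 46.4% to 58.7% in LU, although the sum over Akt2 differed little. The shares of Akt2 and of the short Insr transcript separated CLE and LU from ND and HFD, as the GC dependence of the libraries does, while those of Pik3r1 already differed between ND and HFD without overlap, and the part of GC dependence in these shares was not tested.

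**Figure D4:**
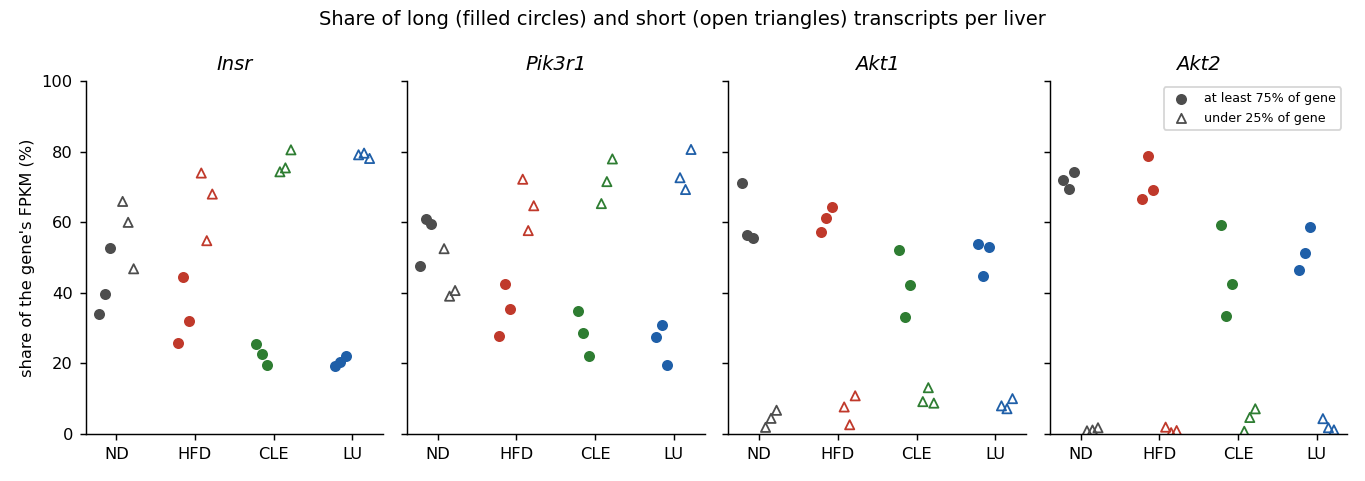
Share of the gene's FPKM in percent (vertical axis, from 0) held by transcripts spanning at least 75% of the gene (filled circles) and under 25% of it (open triangles) for Insr, Pik3r1, Akt1 and Akt2, with 1 symbol of each kind per liver. The long transcripts of Akt2 hold at most 59.2% in CLE and at least 69.4% in ND.

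For the 2 called genes the sums rested on few transcripts. Irs2 came from a single assembled transcript with the intron chain of the known transcript. Igfbp1 came from 7 transcripts, of which the known transcript held means of 49.5% in ND, 65.2% in HFD, 76.1% in CLE and 76.0% in LU. With that transcript in place of the sum, Igfbp1 in HFD against ND was -1.82 and called (limma adjusted p = 0.0422), while CLE against ND and LU against ND were -1.40 and -1.13 and not called (adjusted p = 0.0539 and adjusted p = 0.121). A transcript on the opposite strand held 2.75% of the Igfbp1 sum, and the libraries did not mark strand, so its fragments cannot be told apart from those of Igfbp1.

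The wider pathway was described through 122 other genes in 8 lists, of which 115 passed the filter on low values. In HFD against ND 11 were higher and 6 lower by the same test, which is 14.8% of the 115 against 12.1% of all genes, with a median log2 fold change of 0.065 against 0.115 over all genes. In CLE against HFD 4 were higher and 5 lower (7.83% against 6.03%), and in LU against HFD 3 were higher and 1 lower (3.48% against 1.03%), with medians of -0.041 in both against 0.016 and -0.017. No gene of the lists was called in CLE against LU. These counts moved with single livers: HFD against ND gave 8 calls without HFD 12 or HFD 18, 9 without ND 2 and 10 without ND 4, CLE against HFD gave 1 call without HFD 15 or CLE 4, 2 without HFD 12, 3 without HFD 18, 4 without ND 4, 5 without CLE 11 and 24 without CLE 2, and LU against HFD gave 0 without LU 3, 1 without HFD 15 or LU 2, 2 without HFD 18 and 8 without CLE 4.

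Among genes that insulin raises in liver, 4 of 11 were higher and 2 lower in HFD than in ND. Srebf1, which encodes the lipogenic transcription factor SREBP1, was higher in HFD by 1.72 on the log2 scale (limma adjusted p = 0.009) and was not called in CLE or LU against HFD. Its call in HFD was lost where the transcript with the highest mean replaced the sum, at 1.20 (adjusted p = 0.172). Nr0b2, the nuclear corepressor SHP, was higher by 1.68 (adjusted p = 0.024), and Bhlhe40 was also higher in HFD, with Egr1 and Pnpla3 the genes that were lower.

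Among 15 genes that insulin lowers or FOXO raises, 1 was higher and 2 were lower in HFD than in ND. Pck1, the gluconeogenic enzyme PEPCK, fell from 1351, 1005 and 1434 FPKM in ND to 784, 867 and 708 FPKM in HFD, a log2 fold change of -0.67 (limma adjusted p = 0.019). Mttp, needed to load lipid onto apolipoprotein B, was lower at -0.61 (adjusted p = 0.0087) and Gadd45a, a stress-response gene, was higher by 0.78 (adjusted p = 0.024). In CLE against HFD Sesn3, a sestrin that FOXO factors induce, was lower at -1.01 (adjusted p = 0.033), and no gene of the list was called in LU against HFD. With the clock score as a covariate Pck1 and Mttp were at -0.40 and -0.50 and no longer called (adjusted p = 0.107 and adjusted p = 0.0613), and from their most abundant transcripts they were at -0.64 and -0.62 (adjusted p = 0.0535 and adjusted p = 0.0855).

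The binding proteins of insulin-like growth factors did not all move in the same direction. Igfbp2 was at 462, 280 and 417 FPKM in ND and at 170.0, 118 and 161 FPKM in HFD, a fall at a log2 fold change of -1.35 (SE 0.233, limma adjusted p = 0.0031). It was at 420, 749 and 473 FPKM in CLE and at 454, 497 and 385 FPKM in LU, above every HFD liver, with log2 fold changes against HFD of 1.83 (adjusted p = 0.0029) and 1.57 (adjusted p = 0.0095). The CLE call held without any single liver and the LU call was lost without LU 3 (adjusted p = 0.0585) and with the clock score as a covariate (1.46, adjusted p = 0.129). Igfbp2 and Igfbp1 were both lower in HFD, and Igfbp2 was above HFD in CLE and LU while Igfbp1 was not called there. Igfbp3 rose by 0.97 in HFD (adjusted p = 0.0018), Igf2r, the receptor that clears IGF2, by 0.57 (adjusted p = 0.037), and Igfbp7 was called higher in HFD against ND and again in CLE against HFD, by 0.47 in the latter (adjusted p = 0.038).

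**Figure D5:**
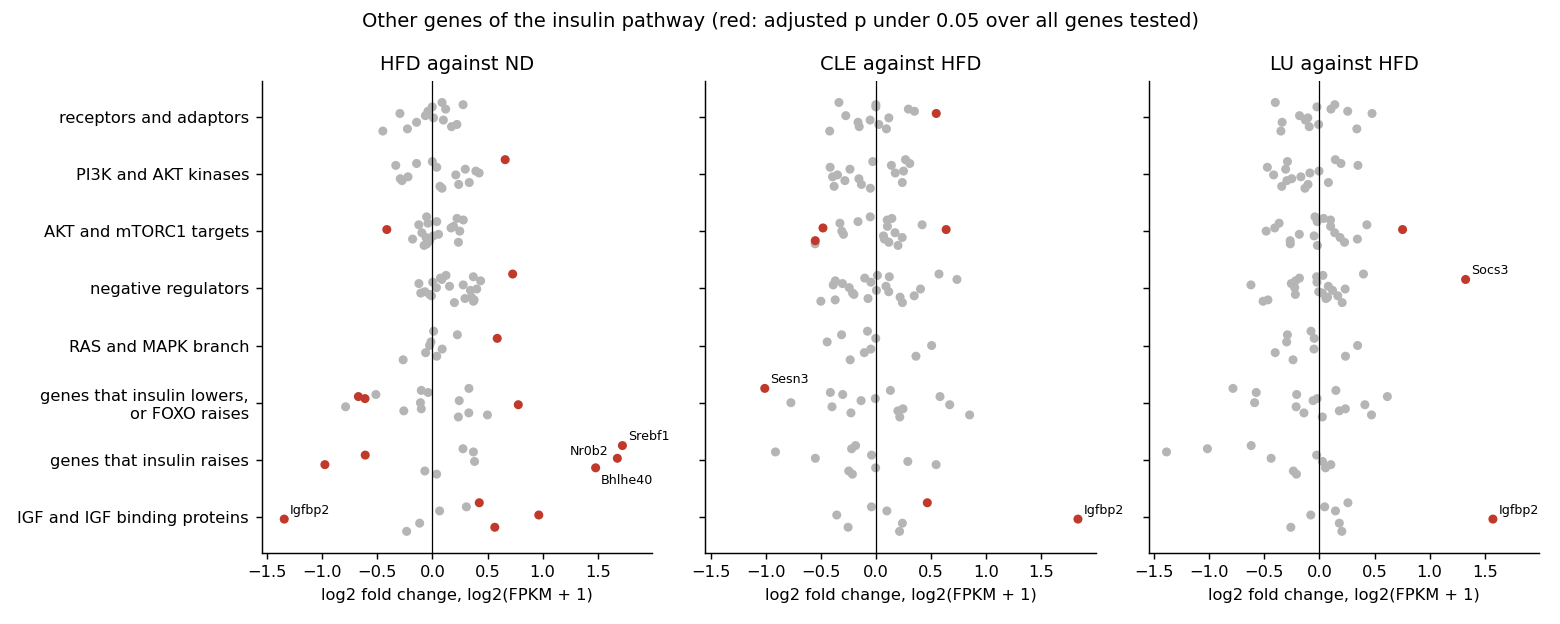
Log2 fold change on the log2(FPKM + 1) scale (horizontal axes) of 113 of the 115 other insulin pathway genes tested, in 8 lists (rows), for HFD against ND (left) and for CLE (middle) and LU (right) against HFD, with 1 point per gene, red where called. Igfbp2 lies at -1.35 in the left panel and at 1.83 and 1.57 in the others.

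Upstream of these targets few genes were called. Of 14 receptors and adaptors none was called in HFD against ND or LU against HFD, and Grb7, an adaptor related to GRB14, was higher in CLE against HFD by 0.55 (limma adjusted p = 0.041). Of 16 PI3K and AKT kinases, Sgk2 was higher in HFD by 0.66 (adjusted p = 0.037) and none was called against HFD. Of 9 genes of the RAS and MAPK branch, Mapk3, which encodes ERK1, was higher in HFD by 0.59 (adjusted p = 0.0095), and was at 0.52 and not called with the clock score as a covariate (adjusted p = 0.0591) or at 0.49 from its most abundant transcript (adjusted p = 0.131).

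Among 19 AKT and mTORC1 targets, Gys2, the liver glycogen synthase, was lower in HFD at a log2 fold change of -0.41 (limma adjusted p = 0.032) and higher against HFD in CLE by 0.64 (adjusted p = 0.018) and in LU by 0.75 (adjusted p = 0.0096). Its means were 80.4 ± 6.80, 60.1 ± 3.78, 94.0 ± 7.41 and 102 ± 11.3 FPKM (SD, n = 3) in ND, HFD, CLE and LU. Eif4ebp2, a translation repressor, and Pde3b, a cAMP phosphodiesterase, were lower in CLE against HFD at -0.55 and -0.48 (adjusted p = 0.045 and adjusted p = 0.042). The Gys2 calls against HFD were lost without HFD 15 in both, and also without HFD 12 or CLE 4 for CLE (adjusted p of up to 0.0934) and without LU 2 or LU 3 for LU (up to 0.0630).

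Among 23 negative regulators, Trib3, a pseudokinase that binds AKT, was higher in HFD by 0.73 (limma adjusted p = 0.035). Socs3, which inhibits cytokine and insulin receptor signalling, was at 2.70, 3.60 and 4.02 FPKM in HFD and at 10.9, 12.8 and 7.21 FPKM in LU, a rise of 1.33 (adjusted p = 0.03) that was lost without HFD 12, HFD 15, HFD 18, LU 2 or LU 3 (adjusted p of up to 0.146). In HFD against ND, Sgk2, Trib3, Gadd45a, Pck1, Nr0b2, Gys2 and Igf2r each lost the call without HFD 12 and without HFD 18, at adjusted p of up to 0.14, as several did without an ND liver. In CLE against HFD, Grb7, Eif4ebp2, Pde3b, Sesn3 and Igfbp7 each lost it without CLE 4 and without any of the 3 HFD livers, at adjusted p of up to 0.181.

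Most of these smaller calls also depended on the processing. With median-of-ratios scaling and with quantile normalization Sgk2, Trib3 and Igf2r were not called in HFD against ND (adjusted p from 0.0801 to 0.124), and Gadd45a was not with quantile normalization (adjusted p = 0.125). With the clock score as a covariate Sgk2, Trib3, Gadd45a and Igf2r lost the call in HFD against ND (adjusted p from 0.0678 to 0.178), and Grb7, Gys2, Eif4ebp2, Pde3b, Sesn3 and Igfbp7 lost it in CLE against HFD (adjusted p from 0.173 to 0.344). In LU against HFD the same fit gave 0.64 for Gys2 and 0.84 for Socs3, neither called (adjusted p = 0.147 and adjusted p = 0.403). Correction for GC content brought Igfbp7 in CLE against HFD to 0.22 (adjusted p = 0.232), and correction for GC content and length to 0.15 (adjusted p = 0.47). For Pde3b the value from its most abundant transcript was -0.04 (adjusted p = 0.818) and that after GC and length correction -0.28 (adjusted p = 0.139). From the most abundant transcripts Grb7, Gys2, Eif4ebp2, Sesn3 and Igfbp7 in CLE against HFD (adjusted p from 0.0608 to 0.148), Socs3 in LU against HFD (adjusted p = 0.079), and Sgk2, Trib3, Gadd45a, Nr0b2, Gys2 and Igf2r in HFD against ND (adjusted p from 0.0529 to 0.0828) were not called. Fitted without the ND and LU livers, none of Grb7, Gys2, Eif4ebp2, Pde3b, Sesn3 and Igfbp7 was called (adjusted p from 0.0576 to 0.124).

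The genes whose pattern over the 12 livers was most like those of Irs2, Igfbp1, Foxo1 and Irs1 were found by Pearson's r on log2(FPKM + 1), as a description over livers that share their diets and libraries. Irs2 was most like Chrna2 (r = 0.932), Agap2 (0.928) and Lepr (0.919), of which Lepr, the leptin receptor, had means of 23.9 FPKM in ND, 1.76 in HFD, 4.66 in CLE and 4.38 in LU. Igfbp1 was most like Mat1a (0.963), Tbpl1 (0.934) and Pitx3 (0.926), with Mat1a, the liver methionine adenosyltransferase, at 2999, 2031, 2079 and 2214 FPKM. Foxo1 was most like Pccb (0.972), Lias (0.969) and Ppp3cb (0.967), and Irs1 was most like Ddx23 (0.945), Net1 (0.912) and Secisbp2l (0.888).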

How the data were processed

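Liver mRNA of 12 mice was sequenced as paired reads of 100 bases, and the authors deposited FPKM values per transcript. The submitters' processing notes name CASAVA 1.8.2, Bowtie2 2.2.3, TopHat2 2.0.12 and Cufflinks 2.2.1. Normalization factors are described in the study's methods, and whether the deposited FPKM values include them is not given in the sources used here, nor is the genome build. GENCODE M21 on GRCm38 matched 85.5% of known transcripts at both ends and was used for coordinates. The table holds 152210 transcripts, of which 73424 were assembled, and its sample-number column reads 30. The depth is unknown.

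Groups were taken from the sample titles, which write the CLE group as CLL. Transcripts of a gene name were summed, and log2(FPKM + 1) was fitted, for the 11567 genes whose mean reached 0.5 FPKM, in R 4.3.3 with limma 3.58.1 (variance trend, all 12 mice, 1 coefficient per group), with Benjamini-Hochberg adjustment over these genes and a threshold of 0.05. Fold changes on this scale understate the change of genes near 1 FPKM. The p-values measure the spread between single mice. Tested on simulated data of the same 11567 genes for HFD against ND, the fit recovered 26 of 200 genes given a log2 change of 0.5, 177 of 200 given 1 and 192 of 200 given 1.5. Exact permutation tests gave the share of all divisions of the 12 livers whose between-group sum of squares was at least that observed. They have no direction.

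The named genes were the 10 members and, in each list and main comparison, up to 3 called genes with the largest change. Some list genes enter the counts but are not reported here by name or drawn. The members and lists were chosen with earlier results of these data known. The genes Bhlhe40, Egr1 and Pnpla3, and Igfbp7 in HFD against ND, were named after their values were seen. Alternatives covered the pseudocount, the filter, scaling, the transcript used, the variance trend, a two-group fit, a clock-gene covariate, the mouse number as a block and each mouse left out. GC correction, GC and length correction and sums over sense transcripts of M21 genes were added after seeing the data.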

Additional observations from a re-analysis of the deposited data

How the results depend on the processing

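Of 60 results on the 10 genes (6 comparisons between pairs of groups per gene), 46 kept their side of the threshold under every alternative, 10 gained a call under at least 1, 4 lost one, and 1 of these 4 changed sign. In 30 an uncalled value changed sign. The counts of called genes among the 10 moved as follows. In HFD against ND the count of 2 became 4 after correction for GC content and transcript length and 3 with median-of-ratios scaling, which added Grb14, with quantile normalization and after GC correction. With the clock score as covariate it became 1 in CLE against HFD and 1 in LU against HFD, from 0 in each, and 0 in CLE against ND and 0 in LU against ND, from 2 in each, where Igfbp1 in LU against ND reversed to 0.22. In CLE against ND it became 5 with median-of-ratios scaling, 5 with quantile normalization, 5 after GC correction and 4 after GC and length correction. In LU against ND it became 1 with the transcript of the highest mean and 3 with median-of-ratios scaling, which added Grb14 (adjusted p = 0.0429), and 3 after GC and length correction. Among the 4 groups it became 5 with median-of-ratios scaling and 4 after GC and length correction. Leaving out each mouse gave counts of 2 to 3 in HFD against ND, 0 to 1 in CLE against HFD, 0 to 0 in LU against HFD, 2 to 5 in CLE against ND, 1 to 2 in LU against ND, 0 to 0 in CLE against LU and 1 to 3 among the 4 groups. The single lower count among the 4 groups came without ND 4, the single count of 5 without CLE 2.

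For the other 115 pathway genes, the 17 calls in HFD against ND became 11 without the filter on low values, 5 with the transcript of the highest mean and 7 with the clock covariate. The 9 calls in CLE against HFD became 3 without the filter, 16 with quantile normalization, 2 with the transcript of the highest mean, 2 with the clock covariate and 2 in a fit of these groups alone. The 4 calls in LU against HFD became 2 with the transcript of the highest mean and 1 with the clock covariate. Leaving out each mouse gave 8 to 18, 1 to 24 and 0 to 8 calls. The cause was not tested.

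Mouse numbers are shared by some ND, CLE and LU mice. The correlation of the deviations of same-numbered mice was -0.259 and -0.097 for the pairs of ND and CLE. It was 0.086 and 0.183 for those of ND and LU, and -0.173 for CLE 2 with LU 2. Mice with unlike numbers were not set beside these pairs, so whether a shared number marks anything more was not tested. With the mouse number as a replicate block in the 9 ND, CLE and LU mice, 1 of the 10 genes was called in CLE against ND and 0 in LU against ND, and without the block 2 were called in each in the same mice. No paired analysis was possible for comparisons with HFD because HFD mice share no number with the others.

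No depth is known, so no counting error can be given, and 3 livers per group limit what was detectable: in the simulation few changes of 0.5 on the log2 scale were recovered.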
